A study of Rattus norvegicus with 8 samples.

Results

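Genes for matrix proteases, their inhibitors and the enzymes that modify collagen were compared between rat atrium and ventricle. The set was named by gene symbol and held 46 genes: matrix metalloproteinases, their tissue inhibitors, ADAM and ADAMTS proteases, plasminogen system genes and serpins, collagen hydroxylases with the collagen chaperone, procollagen processing genes, lysyl oxidases, a transglutaminase and cathepsin K. Of these, 44 were measured, by 66 of the 31042 probe sets on the array, and stood among 14217 genes with a probe set. Adam12 and Pcolce2 had no probe set named here. Where a gene had several probe sets, the brightest over the 8 arrays stands for it, and all sets are given further on where they bear on a call.

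The rats were normal, untreated males of the Sprague-Dawley strain, with weights of 225 to 275 g. The atrial appendage gave 4 pools of RNA and the ventricular free wall gave 4 pools, from 13 animals in all, and each pool was hybridised to 1 array. That both tissues came from the left side rests on the study's methods, and the age of the animals and the animals in each pool are not given in the sources used here. The replicate is therefore a pool of animals, the spread is that between pools, and the number of arrays limits the precision. Values are log2 signal intensities, so that a difference of 1 is a doubling. They ran from 1.9 to 13.77, and arrays of the same tissue correlated at 0.9901 to 0.9965 over probe sets. All 5 atrial and all 6 ventricular cardiocyte markers differed as the tissue labels say, by 3.69 to 7.94 and by 3.11 to 5.2 on the log2 scale. The summed signal of the ventricular markers, as log2, was 11.6, 9.67, 9.76 and 12.19 in atrial pools 1 to 4, against 14.53 to 14.61 in the ventricles. Myl2 read 10.48, 4.32, 6.82 and 11.3 in these atrial pools. Myl3, Fhl2 and Rpl3l were also higher in pools 1 and 4 than in pools 2 and 3. Irx4 (3.37, 3.24, 3.53 and 3.92) and Myh7 (6.28, 6.32, 6.27 and 6.68) stood higher in pool 4 but not in pool 1. The arrays measured whole tissue, in which fewer cells of a type and less RNA per cell cannot be told apart.

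The fibrillar collagens of the heart are made mainly by fibroblasts. The chains are hydroxylated on proline and lysine and folded in the endoplasmic reticulum, trimmed by procollagen proteinases outside the cell, and crosslinked by lysyl oxidases. Matrix metalloproteinases and ADAMTS proteases cut collagens and proteoglycans, plasmin formed by the plasminogen activators cuts fibrin and can activate other proteases, and the TIMPs block the metalloproteinases. ADAM proteases mainly release growth factors, cytokines and receptors from cell surfaces.

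Exact motif letters just before the transcription start differed between the few dim members and the brighter ones, so some windows are shown first. RefSeq start windows of the GRCr8 build were found for 33 members, and the 250 bases before the start were searched on both strands for the letters TGANTCA (the AP-1 motif), TATAAA (the TATA box) and GGGCGG (the GC box). Timp1 and Timp4 are shown because they were the inhibitors that differed most in opposite directions. Mmp3 and Mmp13 are shown as examples of the members whose signal was close to the lowest on the array in both tissues. Capitals mark the motifs, and each line runs 5′ to 3′ in the direction of the gene.
Timp1 promoter (chrX:3771123-3771372, - strand): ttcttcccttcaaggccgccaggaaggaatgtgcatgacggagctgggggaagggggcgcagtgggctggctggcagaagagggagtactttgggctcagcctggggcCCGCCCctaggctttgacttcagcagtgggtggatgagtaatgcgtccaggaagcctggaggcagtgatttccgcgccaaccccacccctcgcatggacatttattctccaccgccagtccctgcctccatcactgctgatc
Timp4 promoter (chr4:149985205-149985454, - strand): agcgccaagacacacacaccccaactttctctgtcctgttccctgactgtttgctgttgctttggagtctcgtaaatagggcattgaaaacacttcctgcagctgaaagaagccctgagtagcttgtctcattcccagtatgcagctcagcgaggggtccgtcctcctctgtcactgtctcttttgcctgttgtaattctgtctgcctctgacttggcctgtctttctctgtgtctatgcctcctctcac
Mmp3 promoter (chr8:12925031-12925280, + strand): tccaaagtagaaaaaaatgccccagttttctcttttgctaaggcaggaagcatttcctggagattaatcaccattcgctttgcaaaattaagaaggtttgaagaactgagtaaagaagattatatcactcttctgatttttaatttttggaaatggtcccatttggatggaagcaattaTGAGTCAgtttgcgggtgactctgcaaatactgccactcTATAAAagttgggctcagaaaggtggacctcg
Mmp13 promoter (chr8:12782579-12782828, + strand): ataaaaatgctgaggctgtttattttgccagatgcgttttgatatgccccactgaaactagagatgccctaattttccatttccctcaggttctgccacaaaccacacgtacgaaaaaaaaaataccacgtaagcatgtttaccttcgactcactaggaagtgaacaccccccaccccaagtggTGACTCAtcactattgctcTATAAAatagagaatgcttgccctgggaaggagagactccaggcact
The Timp1 window held a GC box, read on the opposite strand, and the Timp4 window held none of the motifs. Mmp3 and Mmp13 each held an AP-1 motif followed by a TATA box. Mmp8, dimmer than Mmp3 at 2.74 in both tissues, is not shown and held a TATA box but no AP-1 motif.

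Over the members, the AP-1 letters were found before Mmp3, Mmp7, Mmp12, Mmp13 and Plaur, that is in 5 of 33 windows, against 6.34% of 33469 RefSeq windows. These were 5 of the 6 members with a window and a mean under 4 in both tissues, and 0 of the 27 brighter members. The TATA box was found before 5 of those 6 genes (Mmp3, Mmp7, Mmp8, Mmp12 and Mmp13) and before 1 of the 27 brighter ones, Adamts1, against 12.9% of all windows. The GC box was found in 0 of the 6 and in 20 of the 27, against 30.5% of all windows. Mmp3, Mmp7, Mmp8, Mmp12 and Mmp13 lie close together on chromosome 8, so their windows are not independent of one another. The shares of all windows were not split by signal level, so they give no reference for the contrast of dim and brighter members. These are exact letter matches given as a description, and no test was made on them. Variants of the letters were not counted, such as TGAGTAA in the Timp1 window, so a window without a match may still hold a variant. Bmp1, Lox, Loxl2, Mmp2, Mmp9, Mmp14, Mmp16, Adam9, Adamts5, Plat and Tgm2 had no window.

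Of the 44 measured members, limma called 17 more abundant in the atria and 9 less abundant, and left 18 uncalled (adjusted p under 0.05, adjusted by Benjamini-Hochberg over every probe set of the array). Over all 14217 genes, 22.5% were higher and 22.5% were lower. Timp1, Timp2 and Serpinf1 also passed the study thresholds, taken here as a limma adjusted p under 0.0001 with at least a 1.8 fold difference, on the atrial side, and Adam15 passed them on the ventricular side. That is by the brightest probe set of each gene, and a dimmer set of Timp3 also passed on the atrial side. The study's methods set the same FDR and fold with SAM, which was run as an alternative and also left 3 members on the atrial side and 1 on the ventricular side. Serpinf1 fell below the fold without ventricular pool 2, at a difference of 0.83. Those thresholds were passed by 3.37% of genes on the atrial side and by 2.53% on the ventricular side. All 4 atrial arrays lay above all 4 ventricular arrays for 15 members and below them for 8, against 22.2% and 21.9% of all genes. The median difference of the members, atrium minus ventricle, was 0.09, beside -0.041 over all genes. Without the dimmest 40% of probe sets, a fit that kept 36 members, it was 0.218.

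Differences ran from -1.01 for Adam15 to 1.29 for Timp1, so most called members differed by far less than a doubling. The smallest called differences were 0.3 for Mmp14 on the atrial side and -0.28 for Serpine2 on the ventricular side. Between pools, the members had a median SD of 0.121 for atrial and 0.101 for ventricular arrays, close to those of all genes, 0.114 and 0.093. Against the ventricular mean, the median member stood 0.069, 0.083, 0.079 and 0.177 higher in atrial pools 1 to 4, so pool 4 was highest. Mmp3, Mmp7, Mmp8, Mmp9, Mmp12, Mmp13, Mmp16 and Plaur had means of 4 or less in both tissues, called here the low end of the intensities, and 1 of these 8, Mmp7, was called. Of the other 36 members, 17 were higher, 8 lower and 11 not called. The shares of 22.5% higher and 22.5% lower are over all genes, dim ones included. No share was taken over genes above the low end, so these counts have no matched reference.

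**Figure D1:**
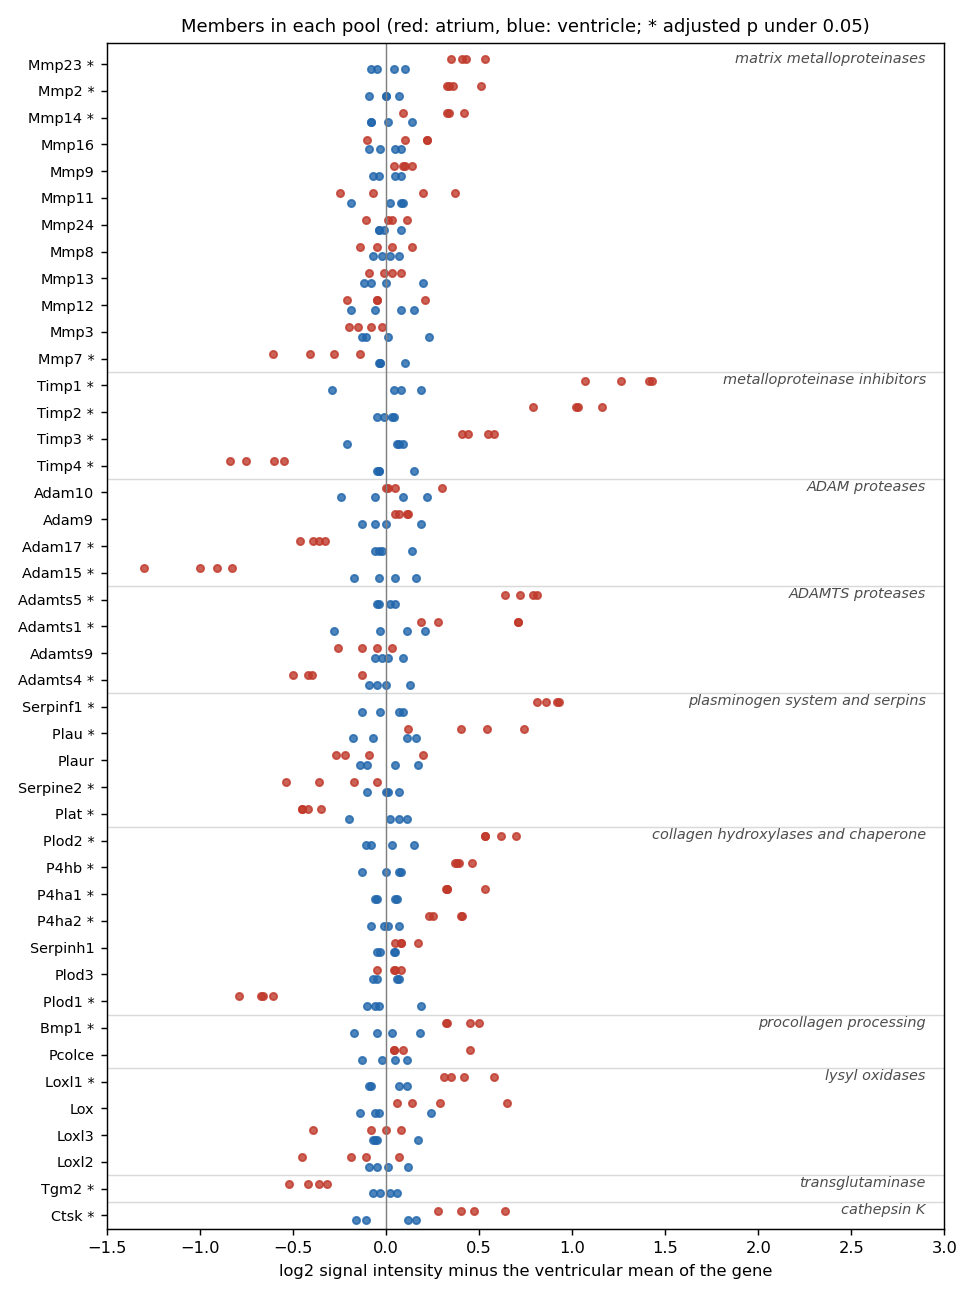
Each member's log2 signal intensity in every pool minus its own ventricular mean, by role; red points are the 4 atrial pools, blue points the 4 ventricular pools, and an asterisk marks an adjusted p under 0.05. Timp1, Timp2, Serpinf1 and Adamts5 lie farthest to the right, Adam15, Timp4 and Plod1 farthest to the left, and the points of both tissues mix for most metalloproteinases.

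**Figure D2:**
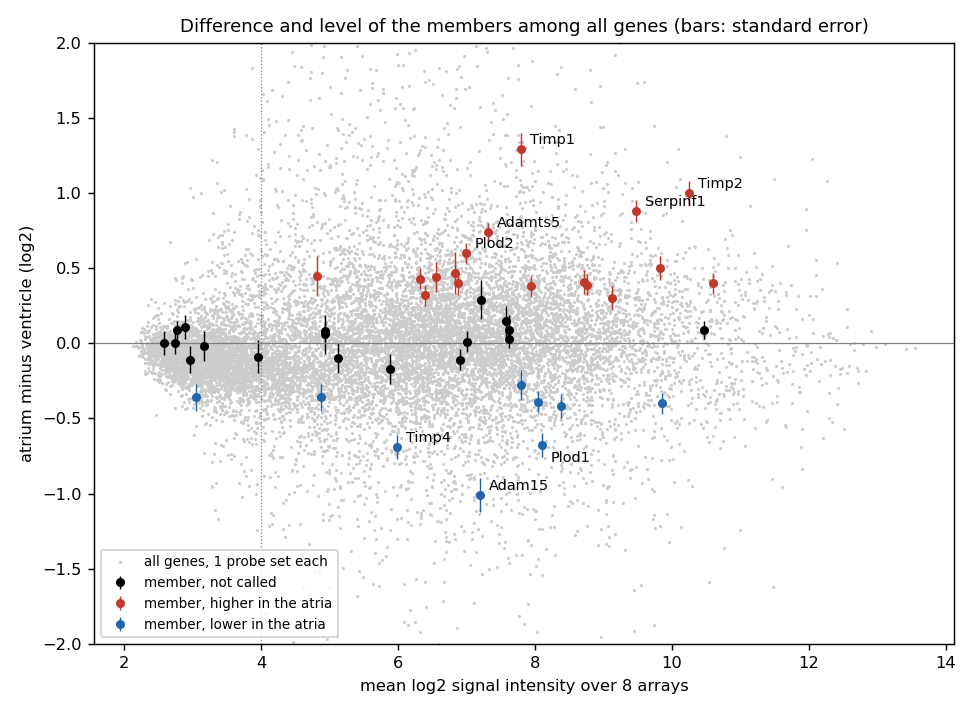
Difference (atrium minus ventricle, log2) of the 44 members against their mean log2 signal intensity over 8 arrays, with standard error bars, over all genes in grey; the dotted line marks a mean of 4, and 166 genes beyond 2 in either direction lie outside the vertical axis. Members left of the dotted line lie near 0 except Mmp7, and called members are spread over the levels to its right.

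Markers of other cells differed between the tissues as well, where 22.5% of all genes were higher and 22.5% lower. Of 10 fibroblast markers, 6 were higher and 1 was lower in the atria, with a median difference of 0.3. Their summed signal (log2) was 13.32 to 13.46 in the atrial pools against 13.05 to 13.2 in the ventricular pools. The lower one was Dpep1, with a difference of -0.72 (adjusted p 0.00033, limma). Mesothelial markers summed to 9.92 to 10.85 against 7.39 to 7.57, with 5 of 6 higher in the atria and 4 under 4 in the ventricles. Adipocyte markers summed to 7.94, 9.12, 8.56 and 10.62 in atrial pools 1 to 4 against 6.62 to 6.79, with 4 of 6 higher in the atria and Lep near the low end in both tissues. Wt1, also a mesothelial marker, was lower in the atria (-0.38, adjusted p 0.029, limma). On the ventricular side, 5 of 7 endothelial markers (11.31 to 11.39 against 11.71 to 11.88), 6 of 6 pericyte markers (9.99 to 10.18 against 10.95 to 11.05) and 5 of 5 smooth muscle markers (9.5 to 9.57 against 10.1 to 10.27) were lower in the atria. Of the endothelial markers, Vwf was higher in the atria by 0.93 (adjusted p 9.3e-06, limma), against the direction of the other called ones. Macrophage markers had 3 of 8 higher and 1 lower, mast cell markers 1 of 5 higher and 1 lower, and nerve and Schwann cell markers 2 of 6 higher and 1 lower. Cnn1 of smooth muscle, Adgre1 of macrophages, Ms4a2 of mast cells and Th of nerves were under 4 in both tissues. The part of these cells in the differences of the members was not tested.

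All 4 tissue inhibitors of metalloproteinases were called: Timp1, Timp2 and Timp3 were higher in the atria and Timp4 was lower. Of all genes, dim ones included, 22.5% were higher and 22.5% lower. Timp1, a secreted inhibitor that is induced in many settings of matrix remodelling, was the most different member. Its probe set read 8.41, 8.56, 8.22 and 8.58 in atrial pools 1 to 4 and 7.23, 7.19, 7.34 and 6.86 in ventricular pools 1 to 4. Every atrial pool lay above every ventricular pool, with ventricular pool 4 the lowest of all. The means of 8.44 ± 0.170 and 7.15 ± 0.204 (SD, n = 4 each) differed 2.45 fold, a difference of 1.29 (SE 0.11) at an adjusted p of 7.9e-06 by limma.

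Timp2, which both inhibits metalloproteinases and takes part in the activation of Mmp2 by Mmp14, was 2.00 fold higher in the atria. It read 10.91, 10.78, 10.77 and 10.54 in the atrial pools and 9.74, 9.78, 9.79 and 9.7 in the ventricular pools, with no overlap and a narrow ventricular range. The difference of 1.00 had an SE of 0.08 and an adjusted p of 3.8e-06 (limma). The other Timp2 probe set gave 7.15 and 6.73, a smaller difference of 0.42 in the same direction (adjusted p 0.0016, limma). Timp3, an inhibitor that binds to the matrix and also blocks several ADAM and ADAMTS proteases, was higher in the atria by all 4 of its probe sets. The brightest gave means of 10.07 and 9.57, a difference of 0.50 (adjusted p 0.00069, limma), and the others gave 0.63, 0.95 and 0.79. The size of the Timp3 difference thus depended on the probe set while its direction did not. The set at 0.95, or 1.93 fold, passed the study thresholds (adjusted p 4.3e-05, limma), and the brightest did not.

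Timp4, the TIMP known for its high expression in heart, went the other way. It read 5.77, 5.48, 5.72 and 5.57 in the atrial pools and 6.28, 6.27, 6.28 and 6.47 in the ventricular pools. Every atrial pool was below every ventricular pool, and ventricular pool 4 stood above the other 3. The means of 5.64 ± 0.136 and 6.32 ± 0.0960 (SD, n = 4 each) differed by -0.69 (SE 0.08), or 1.61 fold, at an adjusted p of 7.4e-05 (limma).

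**Figure D3:**
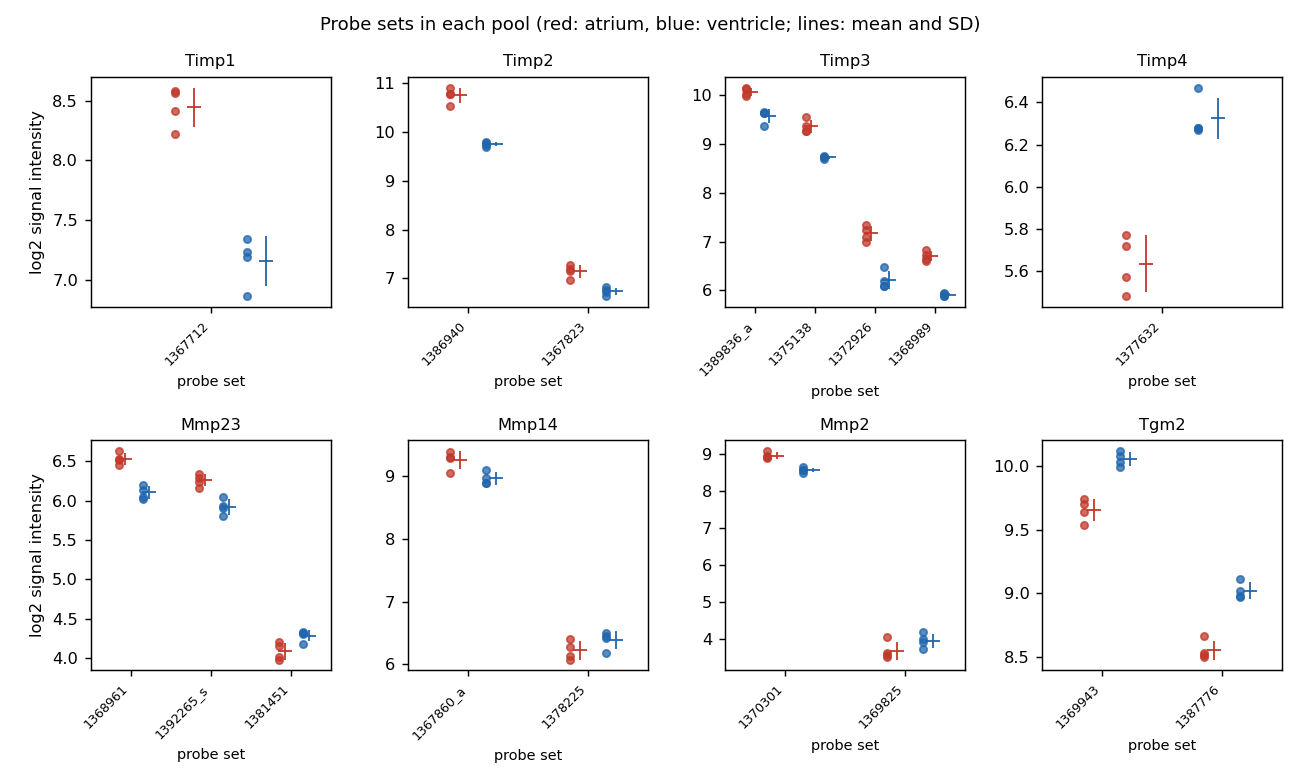
Log2 signal intensity in each pool (red atrial, blue ventricular) for every probe set of the 4 TIMPs, Mmp23, Mmp14, Mmp2 and Tgm2, with mean and SD; each panel has its own vertical axis, which does not start at 0. All probe sets of Timp2 and Timp3 are higher in the atria and both of Tgm2 are lower, while the third set of Mmp23 and the dimmer sets of Mmp14 and Mmp2 do not share the direction of the brightest.

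Of the 12 matrix metalloproteinases, Mmp2, Mmp14 and Mmp23 were higher and Mmp7 lower in the atria, 8 were not called, where 7826 of all 14217 genes were not called, and the median difference was 0.04. Mmp23, a membrane-anchored metalloproteinase, read 6.53, 6.51, 6.45 and 6.63 in the atrial pools and 6.05, 6.14, 6.2 and 6.02 in the ventricular pools. The groups did not overlap, and the means of 6.53 ± 0.0740 and 6.10 ± 0.0820 (SD, n = 4 each) differed by 0.43 (SE 0.07), or 1.35 fold, at an adjusted p of 0.0005 (limma). It was the member whose probe sets were called in opposite directions: a set that can also read related sequences gave 6.26 and 5.92 (difference 0.34, adjusted p 0.0031, limma), and a dimmer set, just above the low end, gave 4.08 and 4.28 (difference -0.20, adjusted p 0.045, limma).

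Mmp2, the gelatinase made by fibroblasts and activated at the cell surface, had means of 8.95 and 8.57 and a difference of 0.39 (SE 0.07, adjusted p 0.00096, limma). Its atrial pools, at 8.9, 8.91, 9.08 and 8.93, all lay above the ventricular pools, which read 8.57, 8.48, 8.64 and 8.57. Mmp14, the membrane-type metalloproteinase that activates Mmp2, read 9.3, 9.06, 9.31 and 9.39 in the atrial pools and 8.98, 8.89, 9.11 and 8.89 in the ventricular pools. Atrial pool 2 fell below ventricular pool 3, so the groups overlapped, and the difference of 0.30 (SE 0.08) had an adjusted p of 0.017 (limma). For both genes the dimmer probe set pointed to the ventricles without being called, at -0.27 for Mmp2 (adjusted p 0.12) and -0.17 for Mmp14 (adjusted p 0.18, limma). With the mean of the probe sets in place of the brightest, the differences of Mmp2 and Mmp14 were both 0.06 (adjusted p 0.51 and 0.46, limma), so these calls rest on the brighter probe set.

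Mmp7, or matrilysin, a small metalloproteinase made chiefly by epithelial cells, read 2.82, 2.62, 3.09 and 2.95 in the atrial pools and 3.2, 3.33, 3.19 and 3.2 in the ventricular pools. The atrial pools lay lower without overlap, with a difference of -0.36 (SE 0.09, adjusted p 0.012, limma), but all 8 values were near the low end. The stromelysin Mmp3, the collagenases Mmp8 and Mmp13, the gelatinase Mmp9, the macrophage elastase Mmp12 and the membrane-type Mmp16 were near the low end too, at means of 2.58 to 3.18 and differences of -0.11 to 0.11, with no call. Mmp11, or stromelysin 3, read 4.96 and 4.90, and Mmp24, a membrane-type enzyme known from nervous tissue, read 7.01 and 7.0, with adjusted p of 0.72 and 0.9 (limma).

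The 4 measured ADAM proteases held 0 higher and 2 lower, Adam15 and Adam17, where 22.5% of all genes were higher and 22.5% lower. Adam15, a membrane protease with a disintegrin domain that is found in endothelial and other cells, read 6.87, 6.7, 6.4 and 6.79 in the atrial pools and 7.75, 7.66, 7.86 and 7.53 in the ventricular pools. The groups were far apart, with atrial pool 3 the lowest, and the means of 6.69 ± 0.207 and 7.70 ± 0.142 (SD, n = 4 each) differed by -1.01 (SE 0.11), or 2.01 fold, at an adjusted p of 3.5e-05 (limma). Its passing of the study thresholds was lost without atrial pool 2 and without ventricular pool 1, 2 or 3, where the adjusted p was 0.00019 to 0.00022 (limma), while it was called lower in the atria under every alternative run. Adam17, the enzyme that sheds tumour necrosis factor and the ligands of the EGF receptor, had means of 7.85 and 8.23, a difference of -0.39 (SE 0.07, adjusted p 0.00086, limma), with no overlap. Adam9 and Adam10, both sheddases, gave 0.08 and 0.09 (adjusted p 0.4 and 0.53, limma), although the second probe set of Adam10 was higher in the atria, at 6.21 and 5.93 (adjusted p 0.047, limma).

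The ADAMTS proteases, which cleave aggrecan, versican and related proteoglycans, were divided. Adamts5 read 7.74, 7.67, 7.76 and 7.59 in the atrial pools and 6.91, 6.9, 6.97 and 7.0 in the ventricular pools. Both tissues were tightly grouped and well separated, with means of 7.69 ± 0.0800 and 6.95 ± 0.0470 (SD, n = 4 each) and a difference of 0.74 (SE 0.06), or 1.67 fold, at an adjusted p of 6.1e-06 (limma). Its other probe set gave 0.53 (adjusted p 0.0018, limma).

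Adamts4 went the other way, at 4.55, 4.65, 4.63 and 4.92 in the atrial pools and 5.0, 5.05, 5.18 and 4.96 in the ventricular pools. All atrial pools were lower, pool 4 only by a little, and the difference was -0.36 (SE 0.09, adjusted p 0.0081, limma). Adamts1, next to Adamts5 on chromosome 11 in the RefSeq gene order, had means of 7.07 ± 0.275 and 6.60 ± 0.211 (SD, n = 4 each) with overlapping pools and a difference of 0.47 (adjusted p 0.022, limma). Its call was lost on leaving out atrial pool 2 (0.39, adjusted p 0.065), atrial pool 3 (0.39, 0.067), ventricular pool 1 (0.38, 0.063) or ventricular pool 2 (0.46, 0.052, limma). Adamts9 gave -0.11 (adjusted p 0.28, limma).

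In the plasminogen system and among the serpins, 2 members were higher, 2 lower and 1 not called, where 22.5% of all genes were higher and 22.5% lower. Serpinf1 encodes pigment epithelium-derived factor, a secreted serpin without protease inhibition that is known to restrain blood vessel growth. It read 9.9, 9.85, 9.96 and 9.97 in the atrial pools and 9.01, 8.91, 9.11 and 9.13 in the ventricular pools. The groups were well separated, and the means of 9.92 ± 0.0590 and 9.04 ± 0.100 (SD, n = 4 each) differed 1.84 fold, by 0.88 (SE 0.07) at an adjusted p of 3.3e-06 (limma).

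The plasminogen activators differed in opposite directions. Plat, tissue plasminogen activator, which is released by endothelium, read 8.24, 8.14, 8.14 and 8.17 in the atrial pools and 8.7, 8.39, 8.61 and 8.66 in the ventricular pools, a difference of -0.42 (SE 0.08, adjusted p 0.0014, limma). Its atrial pools were nearly alike and all lay under the lowest ventricular pool. Plau, urokinase, was higher in the atria by 0.45 (SE 0.13, adjusted p 0.017, limma), but its pools overlapped, at 5.33, 4.71, 5.13 and 4.99 against 4.75, 4.52, 4.7 and 4.41. Its receptor Plaur was near the low end, at 3.91 and 4.00. Serpine2, or protease nexin 1, an inhibitor of thrombin and urokinase, was just inside the threshold at -0.28 (adjusted p 0.048, limma) with overlapping pools. That call was lost on leaving out atrial pool 1 (-0.25, adjusted p 0.11), atrial pool 3 (-0.19, 0.12) or any of ventricular pools 1 to 4 (-0.31, -0.28, -0.27 and -0.25, adjusted p 0.059 to 0.11, limma).

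Among the enzymes that modify collagen inside the cell, 4 of 7 were higher in the atria and 1 was lower, with a median difference of 0.32. Over all genes, dim ones included, 22.5% were higher and 22.5% lower. The lysyl hydroxylases Plod1 and Plod2 differed in opposite directions. Plod2, which hydroxylates lysines of the collagen telopeptides and so sets the type of crosslink, read 7.22, 7.22, 7.31 and 7.39 in the atrial pools and 6.61, 6.58, 6.84 and 6.72 in the ventricular pools. All atrial pools were higher, and the means of 7.29 ± 0.0790 and 6.69 ± 0.118 (SD, n = 4 each) differed by 0.60 (SE 0.07), or 1.52 fold, at an adjusted p of 1e-04 (limma).

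Plod1, which acts on the helical part of the chains, read 7.77, 7.78, 7.65 and 7.83 in the atrial pools and 8.4, 8.34, 8.63 and 8.38 in the ventricular pools. All atrial pools were lower, with a difference of -0.68 (SE 0.08), or 1.61 fold, at an adjusted p of 5.1e-05 (limma). Plod3, which also adds sugars to hydroxylysine, read 7.63 and 7.60 and was not called (adjusted p 0.73, limma).

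The prolyl hydroxylase subunits went together. The catalytic subunits P4ha1 and P4ha2 were higher in the atria by 0.38 and 0.32, and the shared subunit P4hb, protein disulfide isomerase, by 0.40, with adjusted p of 0.0014, 0.003 and 0.00071 (limma) and no overlap for any of them. P4ha2 was read by a second, dim probe set that gave 0.08 (adjusted p 0.35, limma). Serpinh1, the collagen chaperone Hsp47, read 10.5 and 10.41: its atrial pools all lay above its ventricular pools, but the difference of 0.09 was not called (adjusted p 0.23, limma).

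Outside the cell, Bmp1, the proteinase that removes the C-terminal propeptide of fibrillar procollagens, read 6.99, 7.17, 7.12 and 7.0 in the atrial pools and 6.7, 6.5, 6.85 and 6.62 in the ventricular pools. The atrial pools were higher without overlap, by 0.40 (SE 0.08, adjusted p 0.0031, limma), and a second probe set gave 0.26 (adjusted p 0.0061, limma). Pcolce, which enhances the activity of Bmp1, gave 0.15 (adjusted p 0.25, limma).

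Of the 4 lysyl oxidases, which oxidise lysines for crosslinking, Loxl1 was called, where 22.5% of all genes were higher and 22.5% lower. Loxl1, known for its role in elastic fibre assembly, read 8.93, 8.82, 8.86 and 9.09 in the atrial pools and 8.43, 8.58, 8.62 and 8.42 in the ventricular pools. The groups did not overlap, and the difference was 0.41 (SE 0.08), or 1.33 fold, at an adjusted p of 0.0019 (limma). Lox itself gave 0.29 with a wider SE of 0.13 and was not called (adjusted p 0.1), nor were Loxl2 at -0.17 (0.22) and Loxl3 at -0.10 (0.48, limma).

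Tgm2, the tissue transglutaminase that crosslinks glutamine to lysine, read 9.74, 9.7, 9.64 and 9.54 in the atrial pools and 10.08, 10.03, 10.12 and 9.99 in the ventricular pools. Every atrial pool was lower, with a difference of -0.40 (SE 0.07, adjusted p 0.00066, limma), and the second probe set gave -0.47 (adjusted p 0.00021, limma). Ctsk, cathepsin K, a cysteine protease able to cut triple-helical collagen, read 6.61, 6.8, 6.73 and 6.97 in the atrial pools and 6.49, 6.45, 6.22 and 6.17 in the ventricular pools. Every atrial pool was higher, by 0.44 (SE 0.10), or 1.36 fold, at an adjusted p of 0.0044 (limma).

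**Figure D4:**
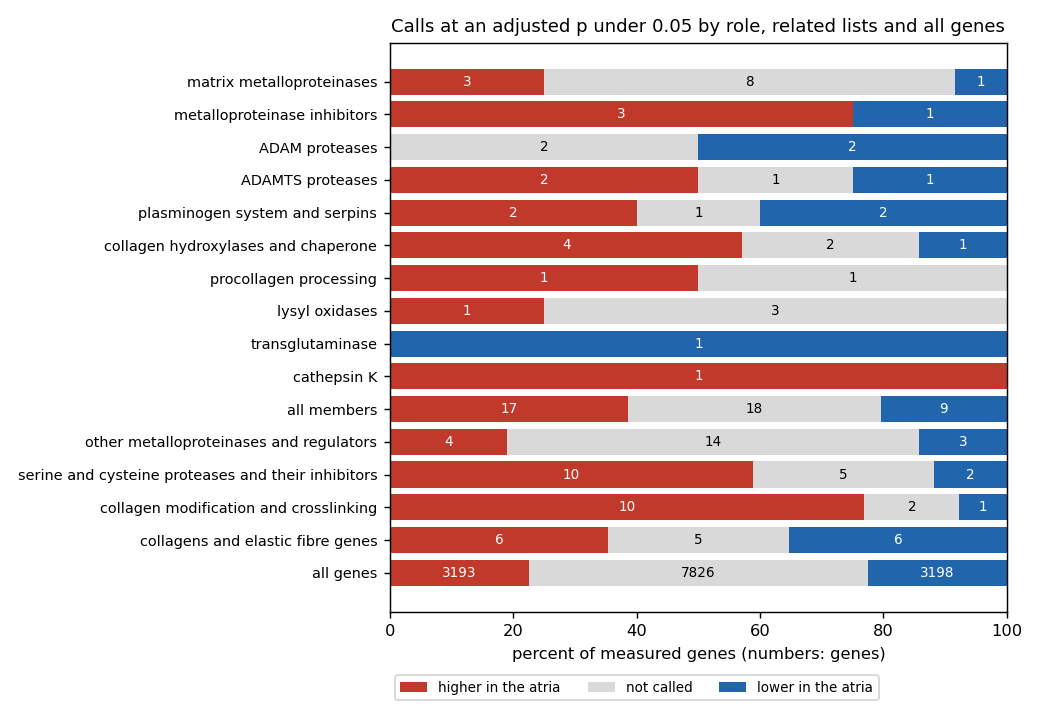
Percent of measured genes that limma called higher or lower in the atria, or left uncalled, with an adjusted p under 0.05 as the threshold. Numbers in the bars are genes. Bars stand for each role of the members, all members, the related lists and all genes. The 4 TIMPs were all called (3 higher, 1 lower), 4 of 7 collagen hydroxylases and chaperone were higher, and 8 of 12 matrix metalloproteinases were not called. Of all genes, 22.5% were higher and 22.5% lower.

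Over all 66 probe sets of the members, 26 were higher, 11 lower and 29 not called, against 18.6% and 20.1% of all probe sets higher and lower. Of the 18 members with several probe sets, Mmp23 had calls in opposite directions and 4 had some sets called and some not.

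Other genes of the same processes were taken from lists of 82 genes, of which 68 were measured. There, 30 were higher, 12 lower and 26 not called, with a median difference of 0.15, where 22.5% of all genes were higher and 22.5% lower. Those shares take in dim genes, and none was taken over genes of like signal to these lists. Of 13 other genes for collagen modification and crosslinking, 10 were higher and 1 lower (median 0.46). Those past the study thresholds were P4ha3, a further prolyl hydroxylase subunit (5.40 and 3.55, a lower bound of 1.85 since the ventricular mean was near the low end), P3h4, a partner of the lysyl hydroxylase complex (0.99, adjusted p 1e-05), and Fkbp14, a folding enzyme that binds procollagen (1.28, 9e-07, limma). Among the collagens and elastic fibre genes 6 were higher, 6 lower and 5 not called (median -0.03). Col14a1, a collagen of fibril surfaces (1.07), and Eln, elastin (1.04), passed the thresholds on the atrial side, and Col4a1 (-1.22) and Col4a2 (-1.23) of basement membranes on the ventricular side.

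Of 21 other metalloproteinases and their regulators, 4 were higher, 3 lower and 14 not called (median -0.01). Adamts8 read 8.23 ± 0.153 and 5.0 ± 0.0770 (SD, n = 4 each), a difference of 3.23 (SE 0.08, adjusted p 2e-09, limma) and 9.39 fold, above that of any member. Adamts15, its neighbour on chromosome 8, was higher by 1.39 (adjusted p 2.3e-07), and Adam33 by 1.63 (2e-06), while Adamts12 was lower, with a difference of -0.97 (2.3e-05, limma). All 4 are metalloproteinases of the ADAMTS and ADAM families. Of 17 serine and cysteine proteases and their inhibitors, 10 were higher and 2 lower (median 0.49), where 22.5% of all genes were higher and 22.5% lower. No share was taken over genes of like signal. Past the study thresholds were Serpinb1a, an inhibitor of neutrophil elastase (1.56, adjusted p 2.6e-06), and Pcsk6, a proprotein convertase that is also known to cleave corin (-1.22, 3.4e-07, limma).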

How the data were processed

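Total RNA of 4 atrial and 4 ventricular pools was labelled with biotin and hybridised to Affymetrix rat expression arrays. The authors computed RMA summaries (background adjustment, quantile normalization and summarization, version not given in the sources used here), and deposited them as log2 signal intensities, which were used without further scaling. Quantile normalization gives all arrays nearly 1 distribution (medians of 4.8 or 4.81), so a shift of all genes would not be seen.

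Groups came from the tissue labels. Atrium minus ventricle was tested with limma 3.58.1 in R 4.3.3 over 31042 probe sets with Benjamini-Hochberg adjustment. Checked on simulated data, 80 of 100 probe sets changed 1.5 fold, 94 of 100 changed 2 fold and 6 of 30842 unchanged ones were called. Far fewer probe sets were changed there than were called in the data, 18.6% higher and 20.1% lower. The adjustment depends on that share, so these rates need not hold for the data. Symbols came from the platform annotation: 20826 probe sets had 1 symbol, 436 several and 9780 none, and 20758 were matched to RefSeq by gene ID. Within each role, the called member with the largest difference in each direction, members past the study thresholds (FDR of 0.01% and 1.8 fold, set by the authors for SAM and applied here to limma's adjusted p) and members with opposed probe sets are given by pool; other values by pool were added where a call rests on them. Related genes past these thresholds are named. Members and lists were chosen with earlier results of these data known. Detection calls were not used. Plots used matplotlib 3.10.9 and Python 3.11.15.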

Additional observations from a re-analysis of the deposited data

Results flagged for a closer look

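Among 88 groups of 4 arrays (44 members in each tissue), 8 held a pool far from the other 3, by Dixon's test of the gap over the range, where chance gives about 1 in 20 groups. In the atria, P4ha1 stood at 8.28 in pool 1 with the others at 8.07 to 8.08, Mmp2 at 9.08 in pool 3 with the others at 8.9 to 8.93, Adam10 at 7.88 in pool 3 with the others at 7.58 to 7.63, and Pcolce at 7.95 in pool 4 with the others at 7.54 to 7.59. In the ventricles, Loxl3 stood at 5.35 in pool 1 with the others at 5.11 to 5.13, Mmp7 at 3.33 in pool 2 with the others at 3.19 to 3.2, Timp3 at 9.36 in pool 4 with the others at 9.63 to 9.66, and Timp4 at 6.47 in pool 4 with the others at 6.27 to 6.28. The calls of Mmp2, Mmp7, Timp3, Timp4 and P4ha1 were kept when the pool that stood apart was left out.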

How the results depend on the processing

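The results were checked under 16 alternatives. Some were a trended and robust variance model, SAM over 70 relabellings, a replicate block, cyclic loess and median centring. Others left out the dimmest 40% of probe sets, took the mean of a gene's probe sets or left out each array. The last used atrial pools 2 and 3 only. It was chosen after seeing the data because the summed ventricular markers were higher in pools 1 and 4. Across these, 15 to 18 members were higher and 8 to 9 lower, and none changed direction with a call. Of the 26 called members, 21 were called alike under every alternative that kept them, and Mmp7, one of these, was not among the 36 members kept without the dimmest probe sets. Beside Adamts1, Serpine2 and the probe set means given above, Mmp14 was lost under cyclic loess (0.24, adjusted p 0.062) and with atrial pools 2 and 3 only (0.22, 0.11), as were Plau (0.33, 0.083) and Serpine2 (-0.29, 0.094) with those pools only. Lox was gained by SAM (0.29, 0.028) and Loxl2 with atrial pools 2 and 3 only (-0.32, 0.027). Without the dimmest 40% of probe sets the median difference was 0.218. Leaving out 1 array gave 0 to 1 members on the ventricular side of the study thresholds and 2 to 3 on the atrial side. Of the atrial 3, Timp1 was lost with the replicate block (adjusted p 0.00022) and with atrial pools 2 and 3 only (0.00017), Serpinf1 under cyclic loess (0.82) and without ventricular pool 2 (0.83), and Timp2 by the mean of its probe sets (0.71). With the replicate number as a block, 17 members were higher and 9 lower, with 0 on the ventricular side of the study thresholds (Adam15 at an adjusted p of 0.00052). Pools of the same number deviated together at correlations of 0.134, 0.155, -0.148 and -0.188, and 2 of 4 atrial pools were closest to the ventricular pool of their own number, so the numbers were not taken as pairs. Signal near the low end limits what can be said of Mmp3, Mmp7, Mmp8, Mmp9, Mmp12, Mmp13, Mmp16 and Plaur.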

Other observations

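Beside cathepsin K, 4 of the 6 other cathepsins on the lists were higher in the atria, where 22.5% of all genes, dim ones included, were. These cathepsins all lay above the low end, so that share is no matched reference. These genes are described after their values were seen. Ctsb and Ctsl, lysosomal cysteine proteases, differed by 0.5 and 0.51 (adjusted p 5.3e-05 and 4e-05, limma), Ctsh by 0.54 (0.0077) and Ctsz by 0.27 (0.028), while Ctss gave 0.08 (0.55) and the aspartic protease Ctsd 0.09 (0.25). Cst3, cystatin C, the secreted inhibitor of these cysteine proteases, was higher as well, by 0.72 (adjusted p 0.00011, limma). Reck, a membrane inhibitor of metalloproteinases, was higher by 0.45 (0.0015), whereas Fap, a fibroblast serine protease, was lower, with a difference of -0.92 (0.001, limma).

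Genes that act on the procollagen chain in the endoplasmic reticulum were among the called ones too. The prolyl 3-hydroxylases P3h1 and P3h3 differed by 0.5 and 0.33 (adjusted p 0.00085 and 0.033, limma), and the folding enzymes Ppib and Fkbp10 by 0.42 and 0.46 (0.00028 and 0.00035). Crtap, the partner of P3h1, read 3.21 and 3.45 near the low end and was not called (0.062, limma). F13a1, the A chain of the transglutaminase factor XIII, was higher by 0.83 (adjusted p 8.4e-06), opposite in direction to Tgm2 at -0.4 (0.00066, limma). In the RefSeq gene order of the GRCr8 build, 8 pairs of the members and related genes are adjacent. How often neighbouring genes share a call over all genes was not counted, so these pairs have no reference. Both genes were higher for P3h4 and Fkbp10 on chromosome 10, Adamts1 and Adamts5 on 11, Adamts15 and Adamts8 on 8, and Col3a1 and Col5a2 on 9, and both were lower for Col4a1 and Col4a2 on 16. On chromosome 20 Col6a1 was lower (-0.16, adjusted p 0.044) while Col6a2 was not called (-0.14, 0.064, limma), and on chromosome 8 neither gene was called for Mmp13 and Mmp12 or for Mmp10 and Mmp8.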
